A study of Mus musculus with 10 samples.

Results

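Type I interferon response genes were examined in neonatal mouse heart cells: 35 gene symbols were listed by name, of which 34 had a row in a table of 21513 genes and all 34 were abundant enough to enter the test of 15740 genes. Ddx58, the RNA sensor RIG-I, had no row under that symbol, and Rigi, its newer symbol, is given beside the other pathway genes and not counted among the 34. RNA was sequenced from primary wild-type (WT) heart cells labelled P1-P3 in 5 groups of 2 libraries. Induced cardiomyocyte-like cells (iCM) carried MGT, a cocktail named for Mef2c, Gata4 and Tbx5, which are transcription factors of the heart, and were harvested at day 14 with ZLN005 (an activator of Ppargc1a transcription), with GW501516 (which activates the nuclear receptor PPARδ) or with DMSO, the solvent. Native cardiomyocytes (CM) were harvested at day 3 and cardiac fibroblasts (CF) at day 14. Neither vector nor DMSO appears in the titles of the CF samples, so gene delivery, solvent and the factors cannot be told apart where iCM with DMSO are set against CF, and day and cell type cannot be told apart in comparisons of CM with the day 14 groups. The vector, the promoter that drives the factors, the doses and the length of treatment were not stated in the material used here. The CM titles name cardiomyocytes while 2 other label fields of these samples give fibroblasts; grouping followed the titles, and the summed level of 8 cardiomyocyte markers was 22749 and 22689 CPM in the CM libraries, against 327 and 499.5 CPM in the CF libraries. CPM, the unit of every level here, is the count of a gene scaled to a common library total. Fibroblast markers were also present in the CM libraries, where 7 of them summed to 11337 and 11285 CPM, against 22355.0 and 25215 CPM in CF. In bulk RNA, fewer cells of a type and less RNA per cell cannot be told apart.

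Cells make type I interferons, the IFN-α family and IFN-β, when sensors such as RIG-I, MDA5 or Toll-like receptors meet foreign or misplaced nucleic acid. The secreted interferon binds the IFNAR1 and IFNAR2 receptor, the kinases JAK1 and TYK2 phosphorylate STAT proteins, and STAT2 joins IRF9 in the complex ISGF3, which binds interferon-stimulated response elements in the promoters of the response genes. The response genes encode antiviral effectors, such as the OAS, IFIT and MX proteins, and also the sensors and factors themselves, so the pathway reinforces its own output, while USP18 and ISG15 restrain or modify it. Fibroblasts are a classical source of IFN-β after viral infection.

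The core letters of such an element, GAAANNGAAA, were searched on both strands in RefSeq promoters of build GRCm38.p6, each running from 250 bases before to 50 bases after a gene's start. A promoter was held for 26 of the 35 listed genes, and 12 of the 26 (46.2%, Wilson 95% interval 28.8 to 64.5) contained the motif, against 1079 of 27025 genes in all (3.99%). With the shorter GAAANNGAA, which every longer match contains, the shares were 14 of 26 (53.8%) and 9.76%. The 12 genes were Bst2, Ddx58, Eif2ak2, Ifih1, Ifit1, Ifit3, Isg15, Oas1a, Oas1g, Oas3, Rsad2 and Stat2. A match is a description of the letters and not evidence of binding. GAAANNGAAA was not found in the promoters held for Irf7, Cmpk2, Ifi44, Ifit2 and Lgals3bp, which are named below for large changes. The search took only exact letters and spacing within these windows, so a missing match is not evidence that no response element is present. Stretches of 80 bases are printed for some of the 12 genes with the motif, among them the paralogues Oas1a and Oas1g. They run 5′ to 3′ on the strand of the gene, with the motif in capitals (read as its reverse complement where it lies on the other strand):
Isg15, chr4:156200846-156200925, minus strand: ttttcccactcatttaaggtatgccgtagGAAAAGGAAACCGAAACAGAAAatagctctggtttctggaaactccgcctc
Bst2, chr8:71537555-71537634, minus strand: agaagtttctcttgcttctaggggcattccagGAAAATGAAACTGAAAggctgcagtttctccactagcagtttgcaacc
Ifit1, chr19:34640759-34640838, plus strand: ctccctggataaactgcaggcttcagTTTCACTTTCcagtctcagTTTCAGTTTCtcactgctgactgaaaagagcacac
Ifit3, chr19:34583355-34583434, plus strand: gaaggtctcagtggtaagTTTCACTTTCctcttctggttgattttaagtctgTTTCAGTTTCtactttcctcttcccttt
Rsad2, chr12:26456528-26456607, minus strand: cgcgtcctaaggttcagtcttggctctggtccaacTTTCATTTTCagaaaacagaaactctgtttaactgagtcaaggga
Oas1a, chr5:120907498-120907577, minus strand: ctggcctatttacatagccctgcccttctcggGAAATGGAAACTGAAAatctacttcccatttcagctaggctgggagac
Oas1g, chr5:120887584-120887663, minus strand: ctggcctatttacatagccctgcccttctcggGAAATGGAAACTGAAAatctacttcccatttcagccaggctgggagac
In Isg15, 3 overlapping copies began 78, 72 and 66 bases before the start. Ifit1 and Ifit3, neighbours on chromosome 19, each had 2 separate copies on the other strand. The Oas1a and Oas1g stretches differed at 1 of 80 bases, whereas over the whole promoters, aligned without gaps, 207 of 298 bases (69.5%) matched. The promoters of the 2 genes differ in the length of a run of T, so a gap-free alignment can understate how much they match. Reads from these 2 genes may have been shared or lost in counting, as may reads of Ifit1 and Ifit3, which have close paralogues. Their levels are therefore uncertain.

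The 10 libraries held 39065969 to 61886463 counts each. Whether the paired libraries derive from different animals or cultures is not stated, so p-values reflect the spread between libraries, which may be technical. The 2 CF libraries stood apart from each other: 33 of the 34 interferon response genes had a higher level in replicate 1 than in replicate 2, with a median log2 ratio of 0.47, whereas 40.6% of all tested genes with counts in both were higher there. The largest gap was in Oas3, which stood at 7.05 CPM in CF replicate 1 and 0.656 CPM in CF replicate 2. Macrophage markers moved with it, with a summed level over 19 genes of 3601 CPM in CF replicate 1 and 618 CPM in CF replicate 2, and their part in the difference was not tested. In the iCM groups the median size of the log2 ratio between replicates was 0.04 to 0.05 for the interferon response genes, and in CM it was 0.31.

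Summed over the 34 genes, the level was 4881 and 4896 CPM in iCM with ZLN005, 5724 and 5639 CPM with GW501516, 3935 and 4028 CPM with DMSO, 204 and 214 CPM in CM, and 2319 and 1896 CPM in CF. The groups did not overlap: GW501516 was highest, then ZLN005, DMSO and CF, and CM was far below the rest. For 28 of the 34 genes (82.4%) the group means fell in that same order, against 3.53% of all tested genes, and the order within the 3 iCM groups alone was found in 82.4% of the 34 and in 18.5% of all tested genes. The 6 exceptions were Ifi27, Irf1, Irf9, Mx1, Zbp1 and Xaf1. The order was read from the sum of these same 34 genes, so their share with it is expected to be high and is not a test. The comparisons also share libraries, so the order is a description and not a set of independent results. Per kilobase of exon, Bst2, which encodes the virion tether tetherin, had the highest mean level of the 34 genes in 4 groups, at 346 CPM per kilobase with ZLN005, 393 with GW501516, 250.8 with DMSO and 139.8 in CF. In CM the highest mean was that of Ifi27, a small mitochondrial and nuclear-envelope protein gene, at 17.4 CPM per kilobase. Oas3 was lowest per kilobase in the 3 iCM groups and in CF, at 0.55 to 2.5 CPM per kilobase.

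**Figure D1:**
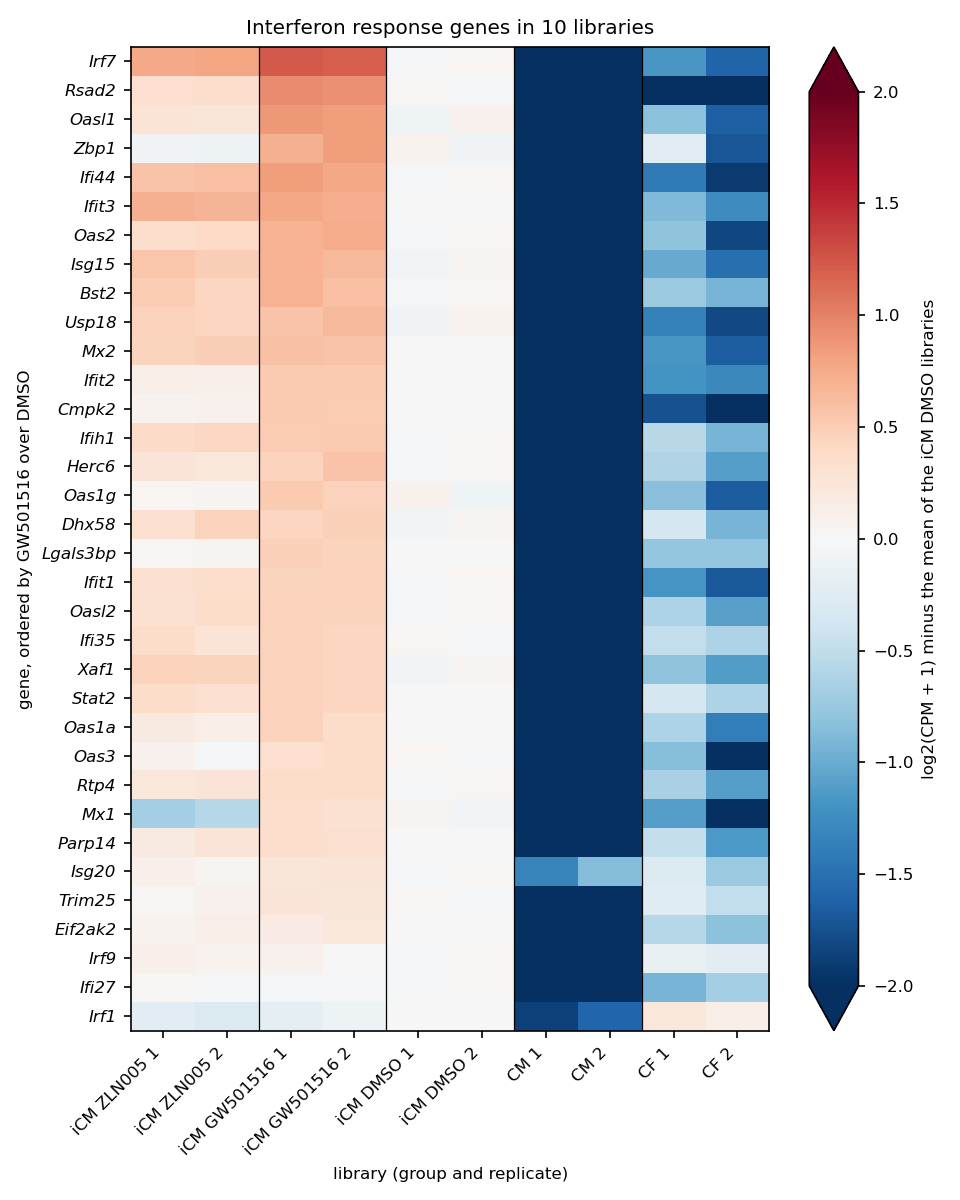
Level of the 34 interferon response genes (rows) in the 10 libraries (columns), as log2(CPM + 1) minus the mean of the 2 DMSO libraries; colours stop at −2 and 2. The ZLN005 and GW501516 columns are mostly red, the CF columns blue, darker in CF replicate 2 than in CF replicate 1, and the CM columns dark blue, beyond −2 for most genes.

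In iCM with DMSO, 31 of the 34 genes were called higher than in CF and 0 lower, at an adjusted p below 0.05 in edgeR, against 19.9% of all tested genes called higher and 19.5% called lower. DESeq2 called the same numbers, and at an unadjusted p below 0.05 edgeR put 32 higher and 0 lower. The median log2 change of the 34 genes was 0.92, beside −0.01 over all tested genes. The rise covered factors, sensors, antiviral effectors and ubiquitin-like modifiers. Without CF replicate 1 the median was 1.24 and 33 genes were called higher, and without CF replicate 2 it was 0.79 and 31 genes were called higher. In a fit of only these 2 groups 26 were called higher, without Oas3 (adjusted p = 0.22), Dhx58 (0.081), Irf9 (0.053), Parp14 (0.051) and Mx1 (0.0501).

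Among the factors, Irf7, which drives interferon gene transcription and is itself induced by interferon, stood at 138 and 146 CPM in iCM with DMSO, against 63.0 and 46.1 CPM in CF. Both DMSO libraries lay above both CF libraries, and the log2 change was 1.38 ± 0.11 (adjusted p = 3.2e-06). Stat2, a subunit of ISGF3, stood at 196 and 195 CPM with DMSO, against 154 and 127 CPM in CF, a smaller change of 0.47 ± 0.08 (adjusted p = 0.00054). Irf9, the DNA-binding subunit of ISGF3, was nearly level at 90.3 and 93.3 CPM with DMSO, against 82.3 and 78.9 CPM in CF, and its change of 0.19 ± 0.05 was called (adjusted p = 0.016) but not without DMSO replicate 2 (adjusted p = 0.093). Irf1, a factor that responds more to IFN-γ and inflammatory signals, went the other way, with 22.6 and 22.7 CPM with DMSO against 26.8 and 24.6 CPM in CF, and was not called (log2 change −0.18 ± 0.10, adjusted p = 0.17). The counts of Irf7 and Irf1 include exons that overlap another gene on the opposite strand, and those of Irf9 exons shared with Rnf31, and whether the counting used strand was not stated in the material used here.

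The largest change was in Rsad2, which encodes the antiviral enzyme viperin. It stood at 76.6 and 74.3 CPM in iCM with DMSO, against 14.5 and 11.1 CPM in CF. The groups did not overlap, and the log2 change was 2.56 ± 0.10 (adjusted p = 1.5e-08). Next to it on chromosome 12, on the opposite strand, lies Cmpk2, a mitochondrial nucleotide kinase gene, which stood at 41.1 and 41.0 CPM with DMSO, against 11.5 and 8.66 CPM in CF (log2 change 2.02 ± 0.13, adjusted p = 5.0e-07). On GRCm38, Rsad2 runs from 26442746 to 26456452 and Cmpk2 from 26469204 to 26479837. Both genes had DMSO levels several times those of CF in every library.

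The IFIT proteins bind foreign RNA and block its translation, and their genes lie together on chromosome 19, from 34550694 to 34576419 for Ifit2, from 34583531 to 34588731 for Ifit3 and from 34640871 to 34650009 for Ifit1. Ifit1 stood at 238 and 251 CPM in iCM with DMSO, against 108 and 75.6 CPM in CF (log2 change 1.41 ± 0.12, adjusted p = 6.5e-06). Ifit2 changed by 1.25 ± 0.05 and Ifit3 by 1.07 ± 0.11, so the 3 neighbours were all called higher. The OAS enzymes make the 2-5A messenger that activates RNase L, and 4 of their genes lie on chromosome 5 between 120730333 and 120907521. Of these, Oas1g changed by 1.29 ± 0.23, Oas2 by 1.24 ± 0.25 and Oas1a by 0.97 ± 0.21. Oas3 stood at 14.0 and 13.1 CPM with DMSO, against 7.05 and 0.656 CPM in CF, and its log2 change of 1.81 ± 0.65 (adjusted p = 0.049) was lost with DESeq2 (adjusted p = 0.13), without DMSO replicate 1 (0.15) and without DMSO replicate 2 (0.13). All Oas3 libraries with DMSO were above both CF libraries, but the CF libraries were far apart. The related Oasl1, with 1.32 ± 0.27, and Oasl2, with 0.84 ± 0.13, were called higher as well.

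The MX proteins are dynamin-like GTPases that trap viral particles. Mx1 stood at 24.7 and 22.9 CPM in iCM with DMSO, against 10.6 and 3.68 CPM in CF (log2 change 1.74 ± 0.35, adjusted p = 0.0036), and Mx2 changed by 1.42 ± 0.12 (adjusted p = 4.9e-06). Ifi44, an interferon-induced gene that can slow cell growth, stood at 141 and 145 CPM with DMSO, against 52.9 and 37.0 CPM in CF, with no overlap (log2 change 1.67 ± 0.12, adjusted p = 1.5e-06). Isg15, a ubiquitin-like modifier, stood at 129 and 140.0 CPM with DMSO, against 66.6 and 46.8 CPM in CF (log2 change 1.25 ± 0.12, adjusted p = 1.8e-05). Usp18, which removes ISG15 from proteins and blocks signalling at IFNAR2, stood at 25.9 and 28.6 CPM with DMSO, against 10.1 and 7.10 CPM in CF, and rose by 1.66 ± 0.14 (adjusted p = 4.1e-06). Herc6, the mouse ligase that attaches ISG15, changed by 0.85 ± 0.15, and Trim25, a ubiquitin ligase of the RIG-I pathway, by 0.37 ± 0.07.

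The remaining called genes were higher by less than 1 on the log2 scale. The RNA sensors Ifih1 (MDA5) and Dhx58 (LGP2) changed by 0.74 ± 0.10 and 0.65 ± 0.17, and Eif2ak2, the kinase PKR that halts translation when it binds double-stranded RNA, by 0.69 ± 0.08. Dhx58 was not called without DMSO replicate 2 (adjusted p = 0.076). Xaf1, a gene that promotes cell death, changed by 0.96 ± 0.08, Rtp4, a receptor chaperone, by 0.87 ± 0.11, Bst2 by 0.84 ± 0.07, Ifi27 by 0.80 ± 0.07, Parp14, an ADP-ribosyltransferase, by 0.79 ± 0.16, Lgals3bp, a secreted galectin ligand, by 0.79 ± 0.07 and Ifi35 by 0.57 ± 0.06. Apart from Irf1, 2 genes missed the threshold: Zbp1, a sensor of Z-form nucleic acid, at 13.2 and 11.9 CPM with DMSO against 10.5 and 3.13 CPM in CF (0.87 ± 0.39, adjusted p = 0.11), and Isg20, an RNA exonuclease gene, at 7.61 and 7.98 CPM with DMSO against 6.25 and 4.28 CPM in CF (0.57 ± 0.21, adjusted p = 0.054). In Zbp1 and Isg20 the DMSO libraries were above both CF libraries, and CF replicate 2 was the lower of the CF libraries in each. Without CF replicate 1 both were called, with a log2 change of 2.02 for Zbp1 and 0.88 for Isg20.

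**Figure D2:**
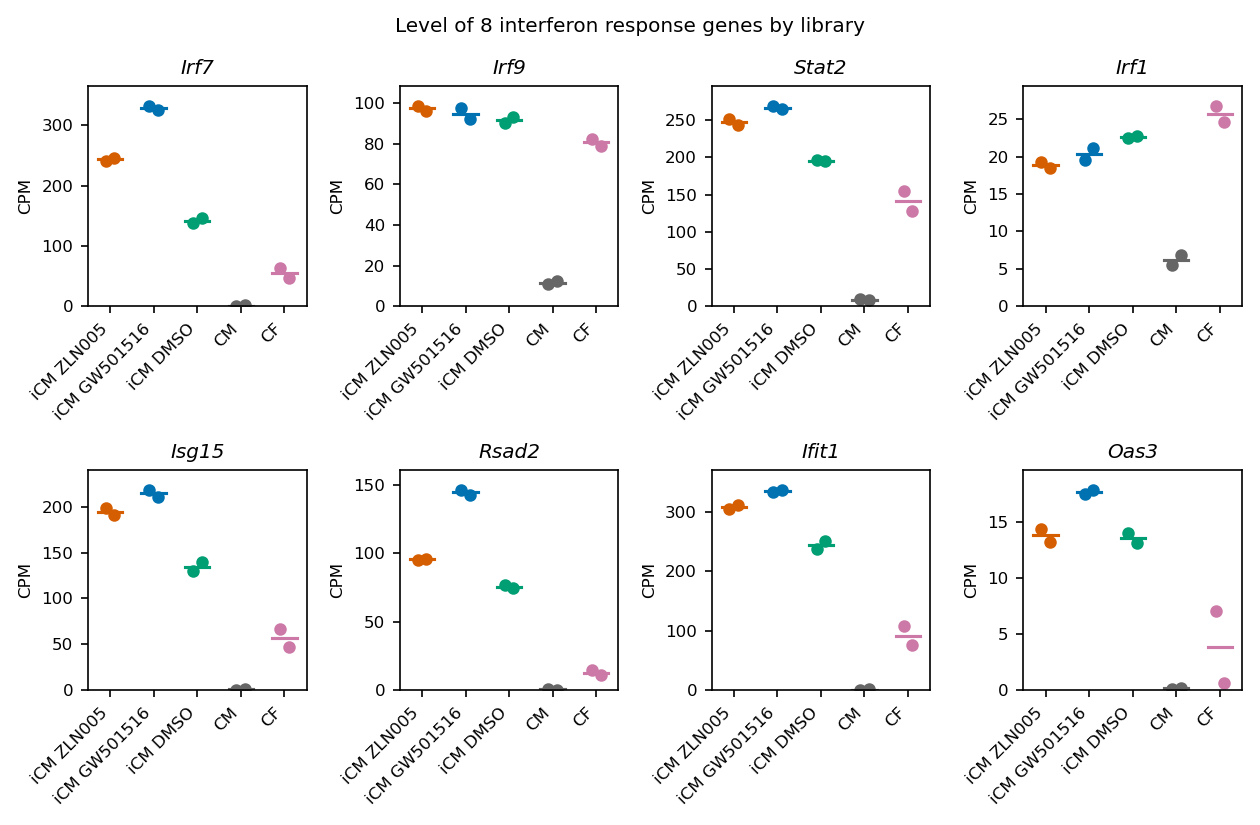
Level in CPM (linear axes from 0) of 3 factors of the pathway, Irf1 and 4 effector genes in each library; points are libraries and bars the mean of the 2 libraries of a group. Irf7, Stat2, Isg15, Rsad2 and Ifit1 are highest with GW501516, then ZLN005, DMSO and CF, while Irf9 differs little among these groups and Irf1 is highest in CF; CM is lowest in each panel.

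With both compounds some of the genes were called higher again. In iCM with ZLN005, 12 of the 34 genes were called higher than with DMSO and 0 lower, against 6.64% of all tested genes called higher and 8.84% called lower, and the median log2 change of the 34 genes was 0.26. In iCM with GW501516, 20 were called higher than with DMSO and 0 lower, against 7.8% and 6.96% of all tested genes, and the median log2 change was 0.47. The median over all tested genes was −0.0004 with ZLN005 and −0.01 with GW501516. DESeq2 called the same numbers, with GW501516 including Dhx58, Eif2ak2 and Rtp4 in place of Ifit1, Oasl1 and Oasl2. At an unadjusted p below 0.05 edgeR put 16 higher and 1 lower with ZLN005, and 24 higher and 0 lower with GW501516. The 12 genes called with ZLN005 were among the 20 called with GW501516, and the 2 comparisons share the DMSO libraries. When any 1 of the 4 libraries was left out, the count of genes called higher was 4 or 5 with ZLN005 and 9 to 13 with GW501516. Called whichever of the 4 libraries was left out were Irf7, Ifit3 and Bst2 with ZLN005, and Irf7, Rsad2, Ifi44, Ifit3, Ifit2, Lgals3bp, Bst2, Stat2 and Ifi35 with GW501516. Markers of other cell types moved with the compounds: 8 cardiomyocyte markers summed to 6492 and 6957 CPM with ZLN005 and 7152 and 7216 CPM with GW501516, against 4108 and 4202 CPM with DMSO. The sum of 7 fibroblast markers was 8869.9 and 9124 CPM with ZLN005 and 10944 and 11128 CPM with GW501516, against 14415 and 14059.0 CPM with DMSO. That sum is mostly Col1a1 and Col1a2. The single markers were mixed: of the 7, 1 was called higher and 4 lower with ZLN005, and 3 higher and 2 lower with GW501516. Of the 8 cardiomyocyte markers, 6 were called higher with ZLN005 and 5 with GW501516, and 2, Myl2 and Myl3, lower with each. None of these markers was at 0 in any library, and their part in the changes of the 34 genes was not tested. Fitted in the 3 iCM groups alone, an alternative chosen after the spread of the CF libraries had been seen, 23 genes were called higher and 2 lower (Irf1 and Mx1) with ZLN005, against 14.1% and 15.4% of all tested genes, and 31 higher and 0 lower with GW501516, against 15.1% and 14.2%.

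Irf7 had the largest log2 change with each compound. It stood at 241 and 246 CPM with ZLN005, against 138 and 146 CPM with DMSO (log2 change 0.78 ± 0.11, adjusted p = 0.00096). With GW501516 it stood at 332 and 325 CPM, a log2 change of 1.21 ± 0.11 over DMSO (adjusted p = 6.0e-05). No library of a compound overlapped a DMSO library. Stat2 stood at 251 and 244 CPM with ZLN005 and 269 and 264 CPM with GW501516, against 196 and 195 CPM with DMSO. The log2 changes were 0.34 ± 0.08 and 0.45 ± 0.08 (adjusted p = 0.013 and 0.0032), and its call with ZLN005 was lost with any 1 of the 4 libraries left out (0.071 to 0.1). Irf9 was nearly level, at 98.5 and 96.2 CPM with ZLN005 and 97.3 and 92.0 CPM with GW501516, against 90.3 and 93.3 CPM with DMSO, and was called with neither. Irf1 was lower in each compound library than in both DMSO libraries, at 19.3 and 18.4 CPM with ZLN005 and 19.6 and 21.1 CPM with GW501516, against 22.6 and 22.7 CPM with DMSO, and was called with neither in the fit of all groups (log2 change −0.26 ± 0.10 and −0.15 ± 0.10, adjusted p = 0.11 and 0.36).

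Isg15 stood at 198 and 191 CPM with ZLN005 and 218 and 211 CPM with GW501516, against 129 and 140.0 CPM with DMSO. All compound libraries were above the DMSO libraries, with log2 changes of 0.53 ± 0.12 and 0.67 ± 0.12 (adjusted p = 0.015 and 0.005). The call with ZLN005 was lost with any 1 of the 4 libraries left out (adjusted p 0.068 to 0.12), as was that of Ifi44 (0.055 to 0.065), and the call of Isg15 with GW501516 was lost without DMSO replicate 1 (0.059). Usp18 stood at 37.7 and 36.8 CPM with ZLN005 and 41.1 and 43.4 CPM with GW501516, against 25.9 and 28.6 CPM with DMSO. The log2 changes were 0.45 ± 0.13 and 0.63 ± 0.13 (adjusted p = 0.042 and 0.0097). Its call with ZLN005 was lost with any 1 of the 4 libraries left out (0.12 to 0.25) and with a replicate block (0.054), and its call with GW501516 without DMSO replicate 1 or either GW501516 replicate (0.055 to 0.099). Ifi44 stood at 213 and 217 CPM with ZLN005 and 256 and 245 CPM with GW501516, against 141 and 145 CPM with DMSO. The log2 changes were 0.59 ± 0.12 and 0.81 ± 0.12 (adjusted p = 0.0074 and 0.0013). Bst2 stood at 321 and 304 CPM with ZLN005 and 367 and 343 CPM with GW501516, against 219 and 234 CPM with DMSO. The log2 changes were 0.46 ± 0.07 and 0.65 ± 0.07 (adjusted p = 0.0012 and 0.00014). In these 4 genes, which were picked as called, the levels with the compounds did not overlap those with DMSO. The share of all tested genes without overlap was not counted.

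In the IFIT cluster 1 gene was called with both compounds and 2 with GW501516. Ifit3 stood at 323 and 315 CPM with ZLN005 and 337 and 328 CPM with GW501516, against 196 and 197 CPM with DMSO (log2 change 0.70 ± 0.11 and 0.76 ± 0.11, adjusted p = 0.0018 and 0.0011). Ifit1 stood at 306 and 313 CPM with ZLN005 and 333 and 337 CPM with GW501516, against 238 and 251 CPM with DMSO, and was called with GW501516 (0.46 ± 0.12, adjusted p = 0.031) but missed the threshold with ZLN005 (0.34 ± 0.12, adjusted p = 0.092). The call of Ifit1 with GW501516 was lost with DESeq2 (adjusted p = 0.063) and with any 1 of the 4 libraries left out (0.12 to 0.19), so the compounds are not separated by it. Ifit2 stood at 199.6 and 195 CPM with ZLN005 and 264 and 264 CPM with GW501516, against 183 and 183 CPM with DMSO, and was called with GW501516 (0.53 ± 0.05, adjusted p = 0.0001). Rsad2 stood at 95.1 and 96.1 CPM with ZLN005 and 146 and 143 CPM with GW501516, against 76.6 and 74.3 CPM with DMSO. The log2 changes were 0.34 ± 0.09 and 0.94 ± 0.09 (adjusted p = 0.034 and 0.00013), and its call with ZLN005 was lost with any 1 of the 4 libraries left out (0.13 to 0.18). Its neighbour Cmpk2 stood at 42.9 and 43.5 CPM with ZLN005 and 59.4 and 58.8 CPM with GW501516, against 41.1 and 41.0 CPM with DMSO, and was called with GW501516 (0.53 ± 0.12, adjusted p = 0.016), while its log2 change with ZLN005 was 0.07 ± 0.12 (adjusted p = 0.75). The call of Cmpk2 was lost with any 1 of the 4 libraries left out (0.098 to 0.11).

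Mx1 and Mx2, side by side on chromosome 16, lay on different sides of the DMSO libraries with ZLN005. Mx1 stood at 14.5 and 15.8 CPM with ZLN005 and 30.7 and 29.7 CPM with GW501516, against 24.7 and 22.9 CPM with DMSO. Its ZLN005 libraries were below both DMSO libraries and its GW501516 libraries above them, and the log2 changes of −0.65 ± 0.34 and 0.34 ± 0.34 were not called in the fit of all groups (adjusted p = 0.26 and 0.57). Mx2 stood at 88.0 and 91.2 CPM with ZLN005 and 97.8 and 96.7 CPM with GW501516, against 65.0 and 64.4 CPM with DMSO, and was called with both (0.47 ± 0.12 and 0.59 ± 0.12, adjusted p = 0.021 and 0.0079), but with neither when any 1 of the 4 libraries was left out (0.11 to 0.14 with ZLN005 and 0.054 to 0.068 with GW501516). In the fit of the 3 iCM groups, Mx1 was called lower with ZLN005 (log2 change −0.64, adjusted p = 1.2e-06). Oas3, the longest of the OAS enzymes, stood at 14.4 and 13.2 CPM with ZLN005 and 17.4 and 17.8 CPM with GW501516, against 14.0 and 13.1 CPM with DMSO, and was called with neither (0.02 ± 0.62 and 0.38 ± 0.61, adjusted p = 0.99 and 0.75). The ZLN005 and DMSO libraries of Oas3 overlapped, and both GW501516 libraries were higher.

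The other genes called with both compounds were Xaf1 (0.45 ± 0.08 with ZLN005 and 0.45 ± 0.08 with GW501516), Ifih1 (0.40 ± 0.10 and 0.52 ± 0.10) and Ifi35 (0.33 ± 0.06 and 0.45 ± 0.06). With ZLN005 the call of Ifih1 was lost with any 1 of the 4 libraries left out (adjusted p 0.1 to 0.13), that of Xaf1 without DMSO replicate 1 (0.0502) and that of Ifi35 without DMSO replicate 2 or ZLN005 replicate 1 (0.062 to 0.072). With GW501516 the call of Ifih1 was lost without DMSO replicate 1 or GW501516 replicate 2 (0.0503 to 0.06) and that of Xaf1 without DMSO replicate 1 (0.059). Oasl1, Herc6, Lgals3bp, Oasl2 and Trim25 completed the 8 that were called with GW501516 and not with ZLN005. The calls of Herc6 (0.12 to 0.2), Oasl2 (0.17 to 0.21) and Trim25 (0.16 to 0.21) were lost with any 1 of the 4 libraries left out, and that of Oasl2 with DESeq2 (0.29). Oasl1, an OAS-like protein gene known in mice to curb Irf7 translation, stood at 14.7 and 14.5 CPM with ZLN005 and 22.8 and 22.1 CPM with GW501516, against 11.3 and 12.8 CPM with DMSO. Its log2 change with GW501516 was 0.90 ± 0.26 (adjusted p = 0.044), a call that was lost with DESeq2 (adjusted p = 0.10) and with any 1 of the 4 libraries left out (0.15 to 0.25). Lgals3bp stood at 627 and 638 CPM with ZLN005 and 857 and 838 CPM with GW501516, against 608 and 619.8 CPM with DMSO, so it was higher with GW501516 (0.47 ± 0.06, adjusted p = 0.001) and nearly level with ZLN005 (0.04 ± 0.06, adjusted p = 0.73). The 14 genes called with neither were Oas1a, Oas1g, Oas2, Oas3, Mx1, Ifi27, Dhx58, Isg20, Irf1, Irf9, Rtp4, Parp14, Zbp1 and Eif2ak2. Among them Ifi27 showed the smallest change with GW501516, at 185 and 178 CPM with ZLN005 and 179.8 and 178 CPM with GW501516, against 180.3 and 184 CPM with DMSO.

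**Figure D3:**
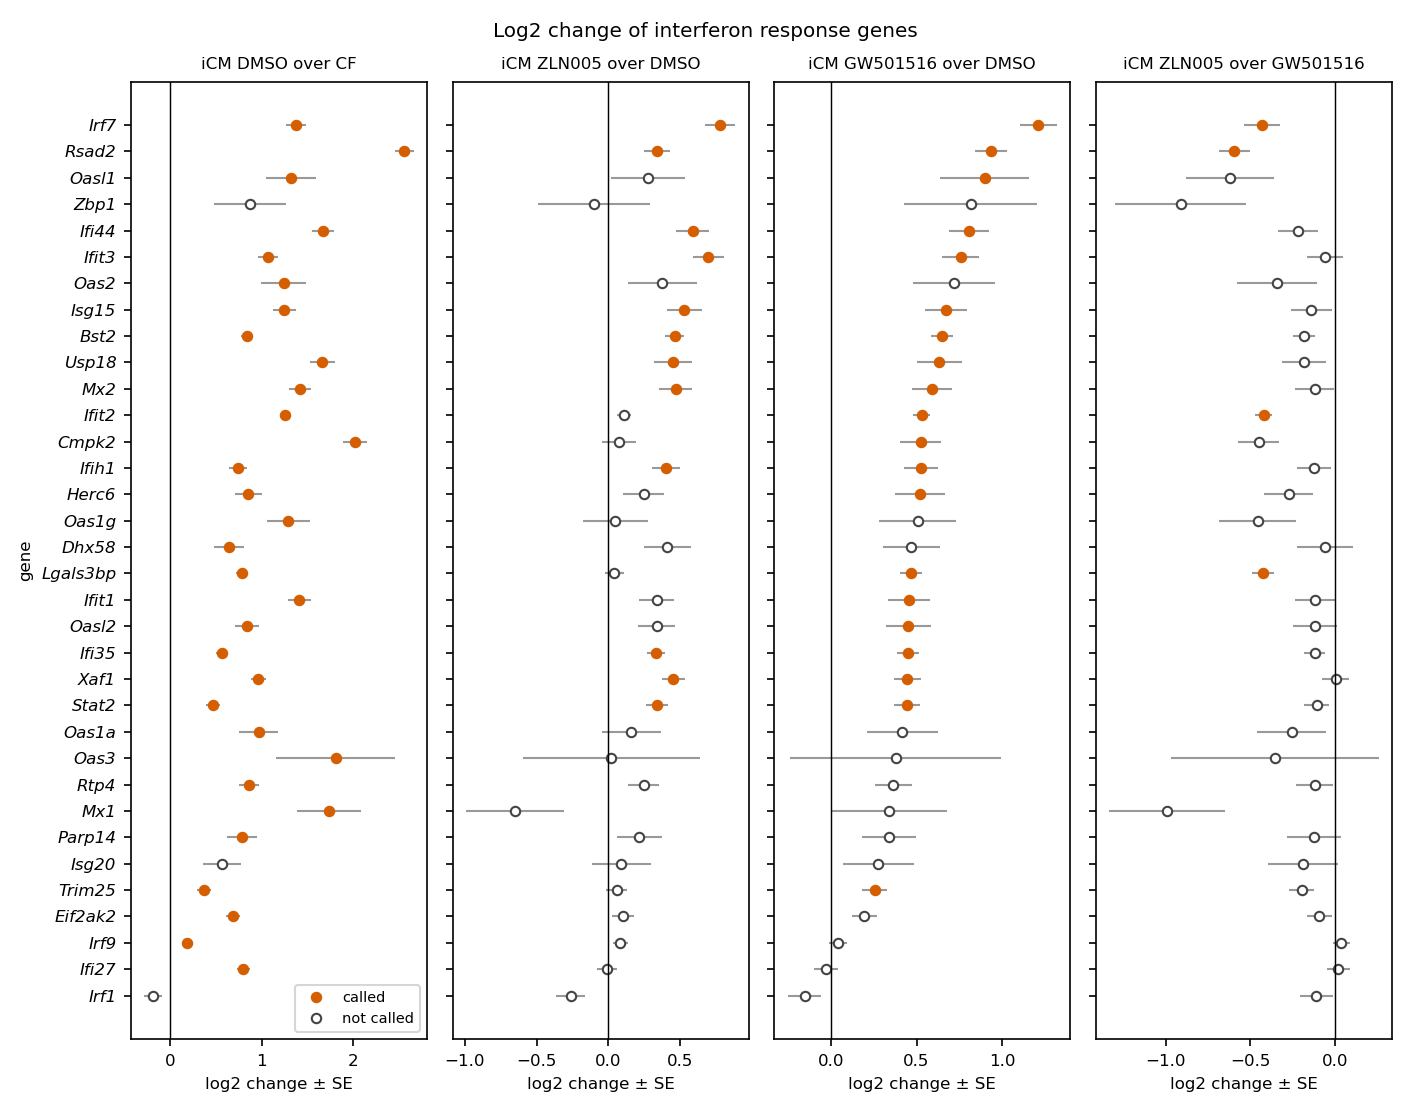
Log2 change ± SE of each of the 34 genes in 4 comparisons, iCM with DMSO over CF, ZLN005 over DMSO, GW501516 over DMSO and ZLN005 over GW501516, with filled points for genes called at an adjusted p below 0.05 in edgeR and open points for the rest; the scales of the panels differ. Called genes lie right of 0 in the first 3 panels (31, 12 and 20 genes) and left of 0 in the last (4 genes).

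The compounds were set against each other directly. With ZLN005, 0 of the 34 genes were called higher and 4 lower than with GW501516, against 1.54% and 3.52% of all tested genes, and the median log2 change was −0.18, beside −0.001 over all tested genes. DESeq2 also called 0 higher and 4 lower, with Cmpk2 in place of Irf7, and at an unadjusted p below 0.05 edgeR put 0 higher and 10 lower. The 4 genes were Rsad2 (−0.59 ± 0.09, adjusted p = 0.004), Irf7 (−0.43 ± 0.11, adjusted p = 0.046), Lgals3bp (−0.42 ± 0.06, adjusted p = 0.0035) and Ifit2 (−0.42 ± 0.05, adjusted p = 0.00087). In all 4 the ZLN005 and GW501516 libraries did not overlap. That is likely for genes picked as called in this comparison, so it is not further support. Ifit2 was still called with any 1 of the 4 libraries left out. The call of Irf7 was lost with DESeq2 (adjusted p = 0.084), with DESeq2 size factors in edgeR (0.052) and with any 1 of the 4 libraries left out (0.20 to 0.29), that of Rsad2 without either ZLN005 replicate or GW501516 replicate 1 (0.061 to 0.076), and that of Lgals3bp without ZLN005 replicate 1 (0.058) or GW501516 replicate 1 (0.061). For Ifit3 the interval of the difference ran from −0.30 to 0.18 on the log2 scale and for Isg15 from −0.41 to 0.13, so the fit of all groups does not separate the compounds for these genes. The interval for Oas3 was far wider, from −1.73 to 1.02. In the fit of the 3 iCM groups, 0 genes were called higher and 22 lower with ZLN005, against 5.99% and 9.56% of all tested genes. Isg15 and Oas3 were among the 22, with intervals of −0.22 to −0.05 (adjusted p = 0.022) and −0.53 to −0.18 (adjusted p = 0.006), and Ifit3 was not, with −0.12 to 0.01 (adjusted p = 0.24).

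In CM, all 34 genes were called lower than in CF, against 36.2% of all tested genes called lower and 34.5% called higher, with a median log2 change of −4.52. Zero counts were recorded for Oas1g, Oas2 and Mx1 in both CM libraries. Taking 3 counts over the group as a floor for counting error, Oas2 was at least 1002-fold lower in CM than in CF, Oas1g at least 232-fold and Mx1 at least 200.3-fold. In CF, Oas2 stood at 48.1 and 23.2 CPM and Oas1g at 10.9 and 5.68 CPM. Of the factors, Irf7 stood at 0.995 and 1.20 CPM in CM, against 63.0 and 46.1 CPM in CF (log2 change −5.64 ± 0.18, adjusted p = 9.0e-10), and Irf9 at 11.1 and 12.2 CPM in CM, against 82.3 and 78.9 CPM in CF (−2.79 ± 0.06, adjusted p = 4.7e-11). Stat2 stood at 9.31 and 8.47 CPM in CM, against 154 and 127 CPM in CF (−3.98 ± 0.09, adjusted p = 8.4e-11). Isg15 stood at 0.752 and 0.972 CPM in CM, against 66.6 and 46.8 CPM in CF (−6.05 ± 0.21, adjusted p = 1.8e-09), and Ifi44 at 0.0884 and 0.102 CPM in CM, against 52.9 and 37.0 CPM in CF (−8.85 ± 0.30, adjusted p = 1.2e-09). The smallest differences were in Isg20 and Ifit2. The change of Isg20 was −0.74 ± 0.22 (adjusted p = 0.011), and its call was lost in a fit of only these 2 groups (adjusted p = 0.082) and without CM replicate 1, where the change was −0.46 (adjusted p = 0.096). The other gene, Ifit2, stood at 32.1 and 35.8 CPM in CM, against 79.0 and 74.5 CPM in CF (−1.18 ± 0.05, adjusted p = 1.5e-08). In CM, Ifit2 had a level above 32 CPM while its neighbours Ifit1, at 1.04 and 1.30 CPM, and Ifit3, at 0.663 and 1.20 CPM, were near 1 CPM.

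All 34 genes were called higher in each iCM group than in CM. With ZLN005 the background was 33.7% of all tested genes called higher and 34.2% lower, with GW501516 33.5% and 33.7%, and with DMSO 35.7% and 34.1%. The median log2 change of the 34 genes over CM was 6.11 with ZLN005, 6.28 with GW501516 and 5.81 with DMSO. Oas2 was at least 3084-fold higher than in CM with ZLN005, at least 3906-fold with GW501516 and at least 2373-fold with DMSO. Its level was 108 and 112 CPM with ZLN005, 137 and 141 CPM with GW501516 and 83.4 and 85.5 CPM with DMSO. Mx1 was at least 426-fold, 848-fold and 669-fold higher than in CM in the same order, and Oas1g, at 20.9 and 21.1 CPM, 29.5 and 28.1 CPM and 21.6 and 18.9 CPM, at least 590.0-fold, 809.9-fold and 570.1-fold. Of the genes with counts in CM, Ifi44, Oas1a and Usp18 changed most. Ifi44 was higher than in CM by 11.11 ± 0.27 with ZLN005, 11.33 ± 0.26 with GW501516 and 10.52 ± 0.27 with DMSO (adjusted p = 1.6e-10, 1.3e-10 and 2.7e-10). Oas1a stood at 67.2 and 64.8 CPM with ZLN005, 81.2 and 76.3 CPM with GW501516 and 58.7 and 59.3 CPM with DMSO, against 0.221 and 0 CPM in CM, with log2 changes of 9.09 ± 0.44, 9.35 ± 0.43 and 8.93 ± 0.44 (adjusted p = 2.4e-08, 1.9e-08 and 2.9e-08). Usp18 stood at 0.111 and 0.0511 CPM in CM, and its log2 changes over CM were 8.77 ± 0.27 with ZLN005, 8.95 ± 0.26 with GW501516 and 8.32 ± 0.27 with DMSO (adjusted p = 8.4e-10, 7.2e-10 and 1.4e-09). Irf7 was higher than in CM by a log2 change of 7.80 ± 0.18 with ZLN005, 8.23 ± 0.18 with GW501516 and 7.02 ± 0.18 with DMSO, and Rsad2 by 7.24 ± 0.16, 7.84 ± 0.16 and 6.90 ± 0.16 in the same order. Isg20 had the smallest change over CM with DMSO, at 1.31 ± 0.22.

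Upstream of the response, interferon transcripts were scarce. Of 21 ligand genes looked for, 10 had a row and 1, Ifnb1 (IFN-β), entered the test. Ifnb1 had 10 and 32 counts with ZLN005, 18 and 26 with GW501516, 6 and 8 with DMSO, 0 and 0 in CM, and 2 and 6 in CF. The libraries of both compounds were above those of DMSO, but the log2 changes of 1.56 ± 0.68 with ZLN005 and 1.98 ± 0.67 with GW501516 were not called (adjusted p = 0.17 and 0.086), and neither was that of DMSO over CF (1.05 ± 0.82, adjusted p = 0.36). The other 9 ligand rows held fewer reads than the filter required, so their differences were not detectable at this depth. Of 6 receptor genes, 1 was called higher and 2 lower with DMSO than in CF, where 19.9% and 19.5% of all tested genes were. Over DMSO, 0 were called with either compound by edgeR or DESeq2, and 1 with each had an unadjusted p below 0.05 in edgeR. The shares of all tested genes called higher and lower there were 6.64% and 8.84% with ZLN005 and 7.8% and 6.96% with GW501516. Ifnar1 stood at 86.3 and 84.8 CPM with ZLN005, 80.6 and 81.7 CPM with GW501516, 94.5 and 87.4 CPM with DMSO, 83.3 and 83.2 CPM in CM and 113 and 99.1 CPM in CF, and was slightly lower with DMSO than in CF (−0.22 ± 0.06, adjusted p = 0.016). Ifnar2 stood at 21.1 and 20.5 CPM with ZLN005, 24.7 and 23.9 CPM with GW501516, 23.8 and 24.8 CPM with DMSO, 17.0 and 15.0 CPM in CM and 26.0 and 23.8 CPM in CF.

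Of 7 genes for kinases and factors outside the 34, 0 were called higher and 4 lower with DMSO than in CF, 1 higher and 0 lower with ZLN005 and 0 with GW501516 than with DMSO. Of all tested genes, 19.9% were called higher and 19.5% lower with DMSO than in CF. Over DMSO the shares were 6.64% and 8.84% with ZLN005 and 7.8% and 6.96% with GW501516, so the compound counts are values of single genes and not of a group. DESeq2 called 0 higher and 3 lower with DMSO than in CF, 1 higher and 1 lower with ZLN005 and 0 with GW501516, and at an unadjusted p below 0.05 edgeR put 2 higher and 5 lower, 1 higher and 3 lower, and 1 higher and 2 lower in these comparisons. Irf3, the constitutive factor that starts interferon transcription, stood at 37.2 and 39.2 CPM with ZLN005, 34.5 and 35.6 CPM with GW501516, 31.2 and 31.4 CPM with DMSO, 25.5 and 25.1 CPM in CM and 28.6 and 28.1 CPM in CF. Its libraries with ZLN005 were above all others, and it was called higher than with DMSO (0.29 ± 0.06, adjusted p = 0.0064). Jak1 (−0.36 ± 0.04), Jak2 (−0.40 ± 0.05), Stat3 (−0.44 ± 0.05) and Irf2 (−0.20 ± 0.07) were called lower with DMSO than in CF. Rigi, the RNA sensor, stood at 236 and 229 CPM with ZLN005, 247 and 239 CPM with GW501516, 202 and 194 CPM with DMSO, 21.0 and 19.9 CPM in CM and 146 and 129.8 CPM in CF. The log2 change of Rigi was 0.52 ± 0.06 with DMSO over CF (adjusted p = 3.6e-05), 0.23 ± 0.06 with ZLN005 over DMSO (adjusted p = 0.021) and 0.30 ± 0.06 with GW501516 over DMSO (adjusted p = 0.0069).

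Of 18 genes for other sensors and adaptors, 4 were called higher and 3 lower with DMSO than in CF, 2 higher and 3 lower with ZLN005, and 0 higher and 1 lower with GW501516 than with DMSO. The shares with DMSO over CF are near those of all tested genes (19.9% and 19.5%), so these are values of single genes and not of a group. Over DMSO, 6.64% of all tested genes were called higher and 8.84% lower with ZLN005, and 7.8% and 6.96% with GW501516. With GW501516, DESeq2 called 1 higher and 2 lower, and edgeR put 2 higher and 3 lower at an unadjusted p below 0.05. Tlr4, the receptor for bacterial lipopolysaccharide, stood at 200.1 and 193 CPM with ZLN005, 150.2 and 160.0 CPM with GW501516, 145 and 153 CPM with DMSO, 105 and 105 CPM in CM and 76.4 and 66.8 CPM in CF. Its log2 change was 1.06 ± 0.06 with DMSO over CF, 0.40 ± 0.06 with ZLN005 over DMSO and 0.34 ± 0.06 with ZLN005 over GW501516 (adjusted p = 3.1e-07, 0.0021 and 0.0098). The other gene called higher with ZLN005 was Rnaseh2b (0.39 ± 0.08), a subunit of the nuclease RNase H2, and Tlr9 (−4.78 ± 1.18) and Traf3 (−0.18 ± 0.05) were called lower. Tlr3, the endosomal receptor for double-stranded RNA, stood at 59.4 and 62.9 CPM with DMSO, against 40.0 and 31.8 CPM in CF (0.77 ± 0.10, adjusted p = 0.00016), and Adar, which edits double-stranded RNA, changed by 0.56 ± 0.08 (adjusted p = 0.00034) and the adaptor Traf3 by 0.32 ± 0.05. Sting1, the adaptor of cytosolic DNA sensing, was lower with DMSO, at 17.9 and 19.7 CPM, against 33.3 and 29.3 CPM in CF (−0.73 ± 0.09, adjusted p = 6.7e-05), as was the DNA sensor Aim2 (−0.65 ± 0.06, adjusted p = 8.2e-06). Tlr7, an RNA sensor of macrophages and dendritic cells, stood at 0.818 and 0.855 CPM with ZLN005 and 1.43 and 1.40 CPM with GW501516, against 17.3 and 16.9 CPM with DMSO, and was called lower with both (−4.35 ± 0.79 and −3.59 ± 0.76, adjusted p = 0.0049 and 0.011). In the CF libraries it stood at 43.7 and 5.78 CPM. Of 8 negative regulators, 1 was called higher and 2 lower with DMSO than in CF, and 0 higher and 2 lower with each compound than with DMSO. These counts stand beside the same shares of all tested genes as those of the sensors. DESeq2 gave the same counts, and at an unadjusted p below 0.05 edgeR put 0 higher with each compound. Socs3 was lower with DMSO than in CF, at 16.0 and 15.3 CPM, against 49.6 and 46.5 CPM (−1.62 ± 0.08, adjusted p = 6.5e-08), and Socs1, a feedback inhibitor of JAK kinases, was not called (0.62 ± 0.27, adjusted p = 0.091). Ptpn6, a phosphatase of blood cells, was called lower with both compounds (−3.14 ± 0.66 with ZLN005 and −3.09 ± 0.67 with GW501516), Socs3 with ZLN005 (−0.40 ± 0.08) and Nlrx1 with GW501516 (−0.62 ± 0.13). Of 13 NF-κB target genes, 0 were called higher and 8 lower with DMSO than in CF, against 19.9% and 19.5% of all tested genes. DESeq2 gave the same counts, and at an unadjusted p below 0.05 edgeR put 0 higher and 9 lower. Vcam1 (−1.54 ± 0.05) and Cxcl1 (−2.30 ± 0.33) were among those called lower. With ZLN005, Vcam1 (−0.29 ± 0.04) and Il6 (−0.42 ± 0.10) were called lower than with GW501516.

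**Figure D4:**
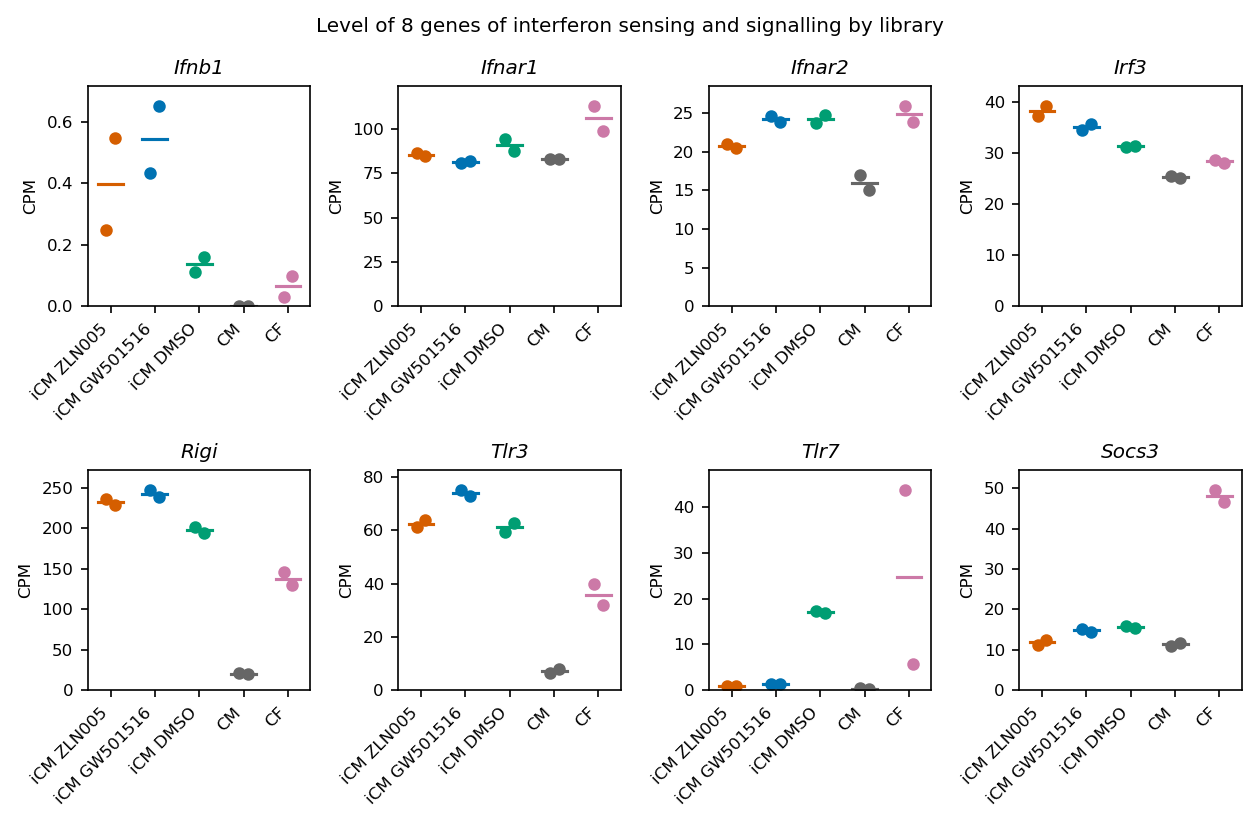
Level in CPM (linear axes from 0) of IFN-β, its 2 receptor chains, Irf3, 3 RNA sensors and Socs3 in each library; points are libraries and bars the mean of the 2 libraries of a group. Rigi and Tlr3 are highest with GW501516, Irf3 is highest with ZLN005 and all 3 are lowest in CM, Ifnar1 and Ifnar2 differ less among the groups, and Tlr7 falls near 0 with both compounds.

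Related interferon-inducible groups outside the 34 were counted in the same comparisons. Of 7 genes of MHC class I presentation, 5 were called higher with DMSO than in CF, 3 with ZLN005 and 4 with GW501516 than with DMSO, where 19.9%, 6.64% and 7.8% of all tested genes were called higher. Of the 7, 0 were called lower in these comparisons by edgeR, by DESeq2 or at an unadjusted p below 0.05. H2-K1, a classical class I heavy chain gene, changed by 0.68 ± 0.09 with ZLN005 and 0.98 ± 0.09 with GW501516 over DMSO (adjusted p = 0.001 and 9.9e-05). Of 11 interferon-induced GTPase and Schlafen genes, 6 were called higher and 1 lower with DMSO than in CF, and 3 higher with ZLN005 and 8 higher with GW501516 than with DMSO, beside the same shares of all tested genes. With ZLN005 DESeq2 called 5 higher, and at an unadjusted p below 0.05 edgeR put 6 higher and 1 lower. Irgm1 changed by 1.00 ± 0.04 with DMSO over CF, Irgm2 by 0.46 ± 0.06 with ZLN005 over DMSO, and the guanylate-binding protein gene Gbp3 by 0.33 ± 0.06 with ZLN005 and 0.56 ± 0.06 with GW501516 over DMSO. Gbp2 changed by 0.57 ± 0.05 and Gbp7 by 0.51 ± 0.06 with GW501516 over DMSO, and both were called lower with ZLN005 than with GW501516 (−0.44 ± 0.05 and −0.24 ± 0.06), as was Iigp1 (−0.50 ± 0.09). In CM 10 of the 11 were called lower than in CF and 0 higher by edgeR, by DESeq2 or at an unadjusted p below 0.05. Of all tested genes, 36.2% were called lower and 34.5% higher there. The smallest p values were in Slfn5 (−5.49 ± 0.06), Gbp3 (−6.75 ± 0.11), Gbp2 (−3.49 ± 0.06), Irgm1 (−2.35 ± 0.04) and Gbp7 (−4.24 ± 0.08). With DMSO over CM the log2 changes were 5.24 ± 0.06 for Slfn5, 3.35 ± 0.05 for Irgm1, 7.15 ± 0.11 for Gbp3, 5.78 ± 0.10 for Irgm2 and 3.74 ± 0.06 for Gbp2. With ZLN005 over CM they were 5.39 ± 0.06 for Slfn5, 3.43 ± 0.05 for Irgm1, 7.48 ± 0.11 for Gbp3, 6.24 ± 0.10 for Irgm2 and 4.96 ± 0.08 for Gbp7. With GW501516 over CM they were 5.58 ± 0.06 for Slfn5, 3.52 ± 0.05 for Irgm1, 7.72 ± 0.11 for Gbp3, 4.31 ± 0.06 for Gbp2 and 6.31 ± 0.10 for Irgm2. Iigp1, a GTPase that attacks parasite vacuoles in mice, changed by 1.37 ± 0.09 with DMSO over CF and by 0.76 ± 0.09 with GW501516 over DMSO (adjusted p = 8.6e-07 and 0.0004).

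Markers of other cells that respond to or make interferon were read in the same libraries. The 19 macrophage markers in the table summed to 148 and 150.1 CPM with ZLN005, 155 and 154 CPM with GW501516, 1033 and 1071 CPM with DMSO, 43.2 and 44.1 CPM in CM, and 3601 and 618 CPM in CF, with 0 of the 19 at 0 in any library. Of the 19, 18 were called lower with ZLN005 and 17 lower with GW501516 than with DMSO, against 8.84% and 6.96% of all tested genes. In the compound groups the macrophage markers were lower and the interferon response genes higher than with DMSO. In CM both lists were at their lowest, and in CF both were higher in replicate 1 than in replicate 2. With DMSO over CF, 0 of the 19 were called by edgeR or DESeq2, against 19.9% of all tested genes called higher and 19.5% lower. In edgeR 1 had an unadjusted p below 0.05, and the DMSO libraries lay between the CF libraries. The part of macrophages in the differences among the 34 genes was not tested. Without CF replicate 1, the library with the most macrophage marker RNA, the median log2 change of the 34 genes with DMSO over CF was 1.24. It was smaller without CF replicate 2, as given with that comparison. Markers of plasmacytoid dendritic cells and lymphocytes were near 0, with 7 genes summing to 0.50 to 1.47 CPM, and Siglech, a defining marker of plasmacytoid dendritic cells, was at 0 in 7 of the 10 libraries.

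**Figure D5:**
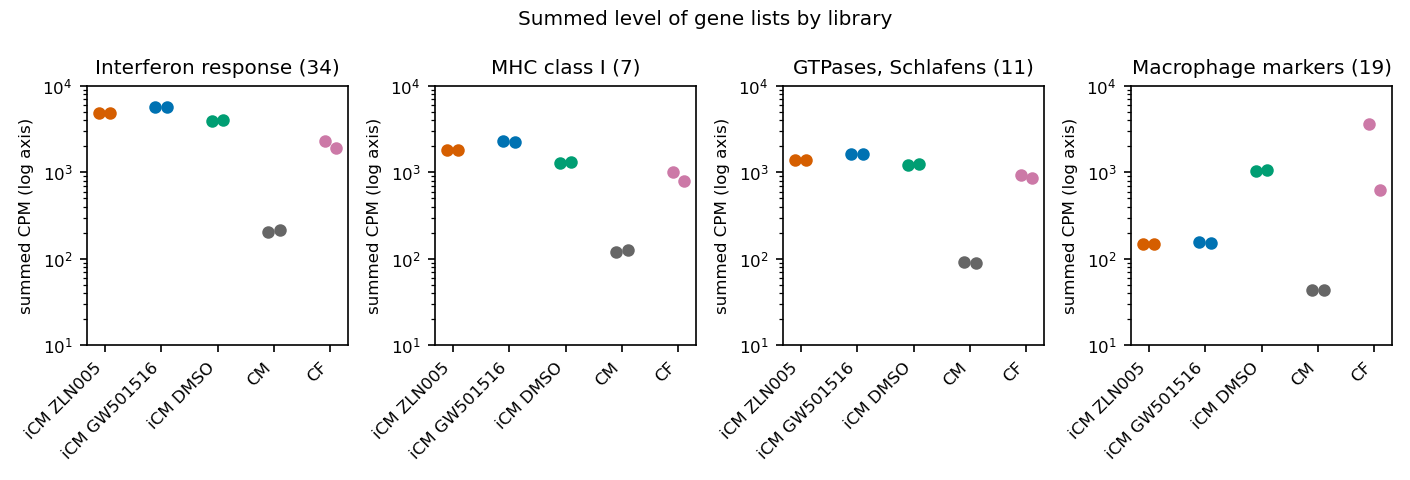
Summed CPM (log axes) of the 34 interferon response genes, 7 MHC class I genes, 11 GTPase and Schlafen genes and 19 macrophage markers; points are libraries. The first 3 lists are highest with GW501516 and lowest in CM, whereas macrophage markers are lower with ZLN005 and GW501516 than with DMSO and differ most between the 2 CF libraries.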

How the data were processed

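Bulk RNA-seq was measured in 10 libraries. The authors deposited raw counts per gene symbol; per the submitters' processing notes, the reads were handled with Trimmomatic 0.36, HISAT2, SAMtools and featureCounts of Subread 1.5.1 on build mm10. Which annotation, strand setting and rule for multiply mapped reads were used is not given in the sources; overlapping genes and near-identical copies therefore have uncertain counts. Per the labels' protocols, RNA came from TRIzol extraction and 2 ug of total RNA entered a TruSeq kit.

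All tests used these counts. edgeR 4.0.16 (R 4.3.3) scaled them by TMM, kept 15740 of 21513 genes with filterByExpr, and fitted all 5 groups in 1 quasi-likelihood model. Benjamini-Hochberg adjustment ran over all 15740 genes within each comparison, with a threshold of 0.05. Each standard error was taken as the size of the log2 change divided by the root of the F statistic, and intervals are 95% from the same fit. A group at 0 was given a floor of 3 counts, which covers counting error only. The procedure was run on simulated counts with known changes, drawn with the spread fitted to these data. The outcome is not given here, so it is no support for the calls of single genes.

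The 34 genes and the other gene lists were chosen with earlier results of these data known. Per comparison, up to 6 called genes with the largest rises and 4 with the largest falls are given with their changes (against a group at 0, as bounds), with 8 role genes in most comparisons, and of the pathway genes outside the 34 up to 5 called ones with the smallest p were named; others were named after their values were seen. Of the kinases and factors, 1 gene is not reported here. Exon positions and lengths came from GENCODE vM21 and promoters from RefSeq, both on GRCm38. Alternatives were DESeq2 1.42.0, DESeq2 size factors, no filter, only the groups compared, only the 3 iCM groups, a replicate block, leaving out each library and a shorter motif. Figures were drawn with matplotlib 3.10.9.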

Additional observations from a re-analysis of the deposited data

How the results depend on the processing

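Counts of called genes moved with the libraries and genes that entered the fit (15115 genes in that of the 3 iCM groups, against 15740). In the fit of the 3 iCM groups the shares of all tested genes called, given with each comparison, were also larger. For fits of only 2 groups, without a filter or with a replicate block, such shares were not counted. Their counts are therefore not read as results about the 34 genes as a group. With ZLN005 over DMSO, 12 genes were called higher and 0 lower in the fit of all groups, 23 higher and 2 lower in the fit of only these 2 groups and also in that of the 3 iCM groups, and 4 to 5 higher when a library was left out. With GW501516 over DMSO, 20 were called higher, 31 in the fit of the 3 iCM groups, and 9 to 13 when a library was left out. With ZLN005 over GW501516, 4 were called lower, 7 without a filter on low counts, 24 in the fit of only these 2 groups, 22 in that of the 3 iCM groups and 1 to 3 when a library was left out. With DMSO over CF, 31 were called higher, and 26 in the fit of only these 2 groups; 0 were called lower, and 0 to 1 when a library was left out (Irf1 without CF replicate 2). Over DMSO, 2.94% to 3.62% of all tested genes were called higher with ZLN005 and 3.6% to 4.61% with GW501516 in fits with 1 library less. With DMSO over CF the share was 14.8% to 15.3% without a DMSO library and 22% to 22.3% without a CF library. A library alone in its group is assumed there to vary like the others. Without a filter on low counts, 16 genes were called higher with ZLN005 and 28 with GW501516 over DMSO, and 33 with DMSO over CF. In the fit of only the 2 groups, 30 were called higher with GW501516 over DMSO. The called genes with the largest changes in each comparison kept their direction under the alternatives run. The direction of the other genes was not compared. Samples with the same replicate number did not deviate together over all tested genes (correlations of deviations −0.003 to 0.04 over 10 pairs of groups). With 2 libraries a group these values cannot exclude a shared animal, culture or batch. With a replicate block 31 genes were called higher with DMSO over CF, and 11 with ZLN005 and 18 with GW501516 over DMSO. In that fit 3 were called lower with ZLN005 than GW501516, and 34 lower with CM than CF. The shares of promoters with the shorter motif stand beside those of the longer. The cause of these shifts was not tested. With 2 libraries a group, small changes and genes near 0 counts were the least certain.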
